A study of Rattus norvegicus with 6 samples.

Results

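Gene expression of the activin, inhibin and follistatin system was followed in rat mammospheres, the spheres that dissociated mammary cells form when they cannot attach to the dish. The set held 9 genes, chosen by name: the subunit genes Inha, Inhba and Inhbb, the binding proteins Fst and Fstl3, and the receptors Acvr1, Acvr1b, Acvr2a and Acvr2b. All probe sets that the platform annotation gives to 1 of these genes alone were taken, 13 in all, and the brightest by its mean over the 6 arrays stood for the gene. Of the 9 genes, 8 had such a probe set; Acvr1b had none and was not analysed here. After the dimmest 40% of probe sets were left out, 7 of the 9 were among the 10424 genes tested, and Inha, with its single probe set below that level, was not.

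Activins are secreted pairs of beta subunits, encoded by Inhba and Inhbb, while inhibins pair one beta subunit with the alpha subunit encoded by Inha and oppose activin. Activins bind the type II receptors Acvr2a and Acvr2b, which recruit the type I receptor Acvr1b and switch on Smad2 and Smad3; follistatin, encoded by Fst, and its relative Fstl3 trap activin outside the cell. In mice the beta B subunit is needed for the ducts and alveoli of the mammary gland to grow fully, and in the ovary gonadotropins raise inhibin output. Inhibin has also been described as a product of rat mammary gland exposed to hCG.

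The hCG group came from female Sprague Dawley rats injected daily with recombinant human chorionic gonadotropin (hCG, a pregnancy hormone that acts through the luteinizing hormone receptor) at 100 IU per day. The Control group received phosphate buffered saline. Injections started at 55 days of age and went on for 21 days, glands 4 and 5 were taken 21 days after the last one, and cells enriched for mammary epithelium were grown for 7 days with EGF, basic FGF and heparin. Each group had 3 Affymetrix arrays, numbered 5, 6 and 7, and the labels do not tie arrays to animals, so p-values cover the spread among these arrays, some of which may be technical. In RNA of whole spheres, fewer cells of a type and less RNA per cell cannot be told apart.

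Markers of the epithelium that the labels name were measured beside those of other cell types. All 10 luminal markers looked at, among them Epcam, Cdh1 and Krt8, and 8 of 10 basal markers lay above the filter, as did 9 of 10 fibroblast markers. Mean log2 levels were taken over the markers above the filter. Over the arrays, these levels were 9.46 to 9.85 for fibroblast, 5.23 to 6.58 for luminal and 4.36 to 5.74 for basal markers. Heights of different probes are not strictly comparable, and which cells held the RNA of the members was not tested. The filter was also passed by 9 of 12 endothelial markers, 5 of 10 macrophage markers and 2 of 7 ovarian granulosa markers. Those granulosa markers were Foxl2 (mean log2 level 4.12) and Star (3.29), with Amh, Cyp19a1, Lhcgr and Nr5a1 below the filter. Fshr and the endothelial marker Cdh5 had no single-gene probe set. The marker levels that follow are means over the tested markers alone, relative to the Control mean on the log2 scale. Endothelial levels, over 9 markers, were 1.25 to 1.34 on hCG arrays and -0.34 to 0.49 on Control arrays. Of the 2 endothelial markers below the filter, Tie1 had a log2 change of 0.67 and Vwf one of -0.10. Of 9 tested endothelial markers, 5 passed limma's test as higher (Emcn, Esam, Sox17, Erg and Cd93). Of these, Sox17 had a Control mean of 2.23, which was below the filter level. It was tested because its hCG values, 4.21 to 4.52, brought its mean over all arrays to 3.31. Over all genes tested, 1.01% passed as higher and 0.815% as lower. Luminal levels were -0.64 to -0.34 on hCG arrays and -0.76 to 0.59 on Control arrays. Estimates of 8 of the 10 luminal markers were below 0 (median -0.43 on the log2 scale), as were 4606 of all 10424 genes tested. Of the 10, 1 passed limma's test as lower, Cd24 (log2 change -1.42, limma adjusted p = 0.0289). Cd24 was also the 1 luminal marker with an unadjusted p under 0.05. Basal levels were 0.45 to 0.77 on hCG arrays and -0.61 to 0.48 on Control arrays. Estimates of all 8 tested basal markers were above 0 (median 0.65 on the log2 scale), as were 5818 of all 10424 genes tested. Of the 8, 0 passed limma's test and 3 had an unadjusted p under 0.05, against 24.1% of all genes tested. Fibroblast levels were 0.06 to 0.33 on hCG arrays and -0.06 to 0.03 on Control arrays, where Lum rose (1.13, limma adjusted p = 0.0373) and Dpt fell (-0.99, limma adjusted p = 0.0375). Macrophage levels were -0.24 to 0.00186 on hCG arrays and -0.23 to 0.33 on Control arrays. These means cover opposite signs, with 2 of the 5 tested markers above 0 and 3 below 0. Their log2 changes ran from -1.33 for Cd68 to 0.90 for Lyz2, and 0 passed limma's test. In the 5 macrophage markers below the filter, changes ran from -0.08 for Csf1r to 1.47 for Mrc1. The 24 probe sets for bacterial control transcripts, found by name, had a mean log2 level of 4.31 to 4.90 on hCG arrays and 5.43 to 5.71 on Control arrays. The groups thus did not overlap on this technical measure, which cannot be told apart from treatment. The part of these differences in the results below was not tested.

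The ligand subunit genes held the 1 member that passed limma's test, Inhbb. The upstream sequences of Inhbb and of Inha are shown because the values of the genes differed. Inhbb was lower after hCG, while Inha, the classical gonadotropin-responsive inhibin gene of the ovary, was dim in both groups. The sequences are the 250 bases before the annotated start from RefSeq (assembly GRCr8), which had such a window for 7 of the 9 genes. The Inhbb window is chr13:33089374-33089623 on the minus strand, and the Inha window chr9:84442859-84443108 on the plus strand, both read 5′ to 3′ along the gene. Capitals mark matches, on either strand, to the letters TGACGTCA (a cAMP response element), TGCGTCA (its variant form), GTCTAGAC and CAGAC (letters that Smad proteins can bind) and GGGCGG (a GC box); overlapping matches run together.
Inhbb: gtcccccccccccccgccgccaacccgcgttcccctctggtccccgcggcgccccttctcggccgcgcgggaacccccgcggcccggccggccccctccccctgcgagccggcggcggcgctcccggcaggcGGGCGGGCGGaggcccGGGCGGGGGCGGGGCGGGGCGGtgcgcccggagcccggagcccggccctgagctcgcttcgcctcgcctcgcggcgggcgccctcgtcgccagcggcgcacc
Inha: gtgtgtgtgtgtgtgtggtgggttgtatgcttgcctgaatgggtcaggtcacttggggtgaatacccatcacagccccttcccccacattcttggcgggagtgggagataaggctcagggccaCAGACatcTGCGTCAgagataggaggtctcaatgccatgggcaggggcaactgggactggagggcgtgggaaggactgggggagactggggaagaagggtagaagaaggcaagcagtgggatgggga
The Inhbb window held 6 overlapping or neighbouring matches to GGGCGG, between bases 118 and 81 before the start, and no match to the other letters; 86.8% of its bases were G or C. The Inha window held TGCGTCA at bases 119 to 113 before the start and CAGAC at bases 127 to 123, with 58.4% G or C. Among 33465 rat windows of this length, GGGCGG was found in 30.5%, CAGAC in 42.9%, TGCGTCA in 1.66%, TGACGTCA in 1.59% and GTCTAGAC in 0.173%, and the median share of G or C was 51.2%. A match describes letters and not a bound site.

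Inhbb, which encodes the beta B subunit of activin B and inhibin B, fell in spheres from hCG-treated rats. Inhbb was measured by 1 probe set, so no other probe set could be compared. Its log2 level was 4.74, 4.52 and 3.98 on hCG arrays 5, 6 and 7, against 5.71, 6.08 and 5.63 on Control arrays 5, 6 and 7. Every hCG array lay below every Control array, and the gap between the groups was wider than the range within either. The mean was 4.41 ± 0.39 for hCG and 5.81 ± 0.24 for Control (SD, n = 3 each), a log2 change of -1.40 (SE 0.21, 95% interval -1.90 to -0.89), or 2.63-fold lower. The limma adjusted p was 0.0382 over the genes tested. Inhbb was thus 1 of 7 tested members to pass, where 1.82% of all 10424 genes did so, 1.01% as higher and 0.815% as lower. The call was lost when hCG 5, hCG 7, Control 5 or Control 6 was left out (limma adjusted p = 0.107, 0.174, 0.0907 and 0.124), settings in which limma called 0 genes in all, with 1455 to 1950 genes at an unadjusted p under 0.05. It held without Control 7 (limma adjusted p = 0.0377) and without hCG 6 (0.0449). Without hCG 6 it was lost when p was adjusted over all probe sets (limma adjusted p = 0.0521).

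Inhba encodes the beta A subunit of activin A and inhibin A. Its brighter probe set read 8.90, 9.65 and 9.28 on hCG arrays 5, 6 and 7, against 10.08, 9.93 and 9.69 on the Control arrays of the same numbers. All hCG values lay below all Control values, with hCG 6 and Control 7 nearest to each other. The log2 change was -0.62 (SE 0.20, 95% interval -1.09 to -0.15), with a limma adjusted p of 0.130, so Inhba did not pass. The second probe set gave a similar picture, with 7.09, 7.69 and 7.37 on hCG arrays and 8.36, 8.20 and 7.85 on Control arrays. Its groups also lay apart, with a log2 change of -0.75 (SE 0.19, limma adjusted p = 0.0859 over probe sets). With single arrays left out, the change of the brighter probe set ran from -0.81 without hCG 6 to -0.43 without hCG 5.

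Inha, the alpha subunit that turns a beta subunit into an inhibin, was dim in both groups. Its log2 level was 2.001, 1.82 and 1.76 on hCG arrays and 1.98, 1.85 and 1.90 on Control arrays, all under the filter level of 2.67. The groups overlapped, and with the filter removed the log2 change was -0.05 (95% interval -0.27 to 0.16, limma adjusted p = 0.801). At this signal a difference in Inha was not detectable.

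**Figure D1:**
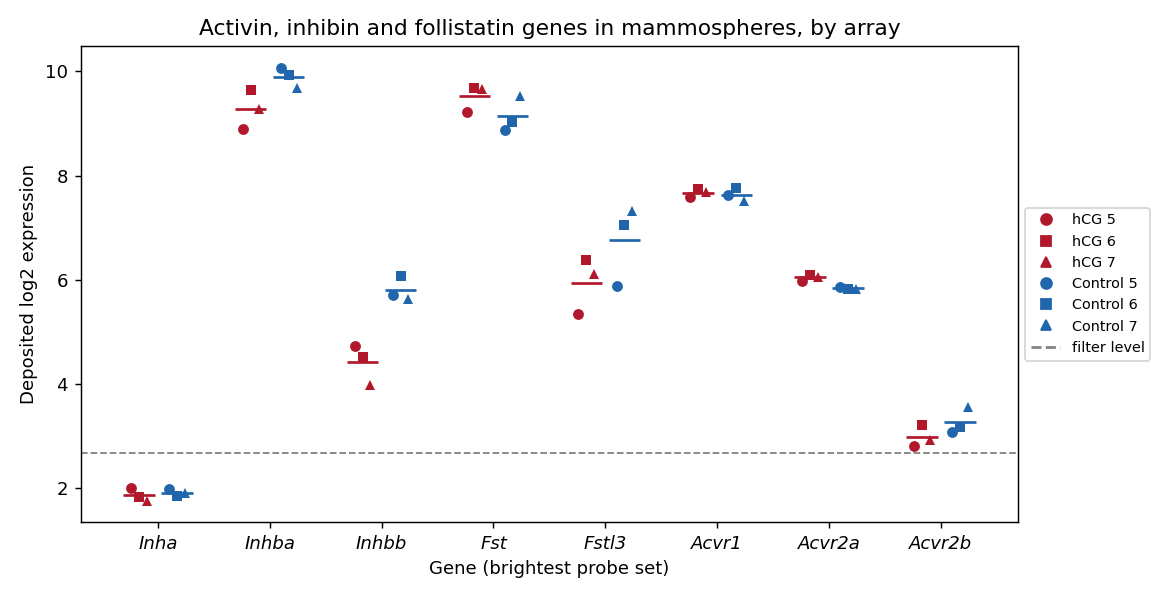
Log2 expression of the 8 measured genes, each by its brightest probe set, with hCG arrays in red at the left and Control arrays in blue at the right of each gene; short lines are group means and the dashed line is the filter level of 2.67. The Inhbb values of the 3 hCG arrays, 3.98 to 4.74, lie below those of the 3 Control arrays, 5.63 to 6.08, and heights of different genes are not comparable because they come from different probes.

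The genes of the activin-binding proteins did not pass, and their estimates had opposite signs. Fst, which encodes follistatin, read 9.22, 9.68 and 9.66 on hCG arrays 5, 6 and 7, against 8.87, 9.03 and 9.54 on Control arrays 5, 6 and 7. Control 7 lay inside the hCG range, so the groups overlapped, and the log2 change was 0.37 (SE 0.20, 95% interval -0.11 to 0.85, limma adjusted p = 0.313). The second Fst probe set gave 8.79, 9.22 and 9.07 on hCG arrays and 8.46, 8.50 and 8.74 on Control arrays. Those groups did not overlap, at a log2 change of 0.46 (SE 0.14, 95% interval 0.13 to 0.78), and the probe set did not pass either (limma adjusted p = 0.120 over probe sets). Without Control 7, the change of the brighter probe set was 0.57, and without Control 5 it was 0.23.

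Fstl3, a follistatin relative that binds activin and myostatin, varied most between arrays of one group. Its brighter probe set read 5.35, 6.38 and 6.10 on hCG arrays and 5.88, 7.06 and 7.32 on Control arrays. Control 5 lay below hCG 6 and hCG 7, and array 5 was the lowest of its group in both groups. The log2 change was -0.81 with an SE of 0.42 (95% interval -1.80 to 0.18, limma adjusted p = 0.288), and it ran from -1.25 without Control 5 to -0.51 without hCG 5. The dimmer probe set differed by -0.70 (SE 0.46), at a limma adjusted p of 0.412 over probe sets, and array 5 was again the lowest of each group, at 2.65 for hCG and 3.47 for Control.

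The 3 measured receptor genes had the smallest estimates of change among the tested members, and none passed. Acvr2a, a type II receptor, read 5.98, 6.09 and 6.06 on hCG arrays and 5.85, 5.83 and 5.83 on Control arrays. The groups lay apart because both were tight (SD 0.05 for hCG and 0.01 for Control), yet the log2 change was 0.21 (SE 0.07, 95% interval 0.03 to 0.38, 1.15-fold) and did not pass (limma adjusted p = 0.158). Acvr2b, the other type II receptor, was dim, with 2.81, 3.21 and 2.92 on hCG arrays and 3.07, 3.17 and 3.55 on Control arrays. Its groups overlapped, at a log2 change of -0.28 (SE 0.16, 95% interval -0.66 to 0.10, limma adjusted p = 0.333). With single arrays left out, it ran from -0.40 without hCG 6 to -0.14 without Control 7.

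Acvr1 encodes a type I receptor used mainly for bone morphogenetic proteins, which activin A can occupy without signalling. Its brightest probe set read 7.58, 7.74 and 7.68 on hCG arrays and 7.62, 7.76 and 7.52 on Control arrays. The hCG values fell within the Control range, and the log2 change of 0.03 had a 95% interval of -0.19 to 0.25 (limma adjusted p = 0.865). The other 2 probe sets gave changes of -0.06 (SE 0.12) and -0.01 (SE 0.31), so the direction differed between probe sets. The dimmest of them spread widely among Control arrays, with 4.61, 5.02 and 3.72, against 4.31, 4.59 and 4.44 on hCG arrays. Of the 7 tested members, 3 had groups that did not overlap, Inhba and Inhbb lower and Acvr2a higher, where 31.6% of all genes tested did so, 19.3% higher and 12.3% lower in hCG spheres.

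**Figure D2:**
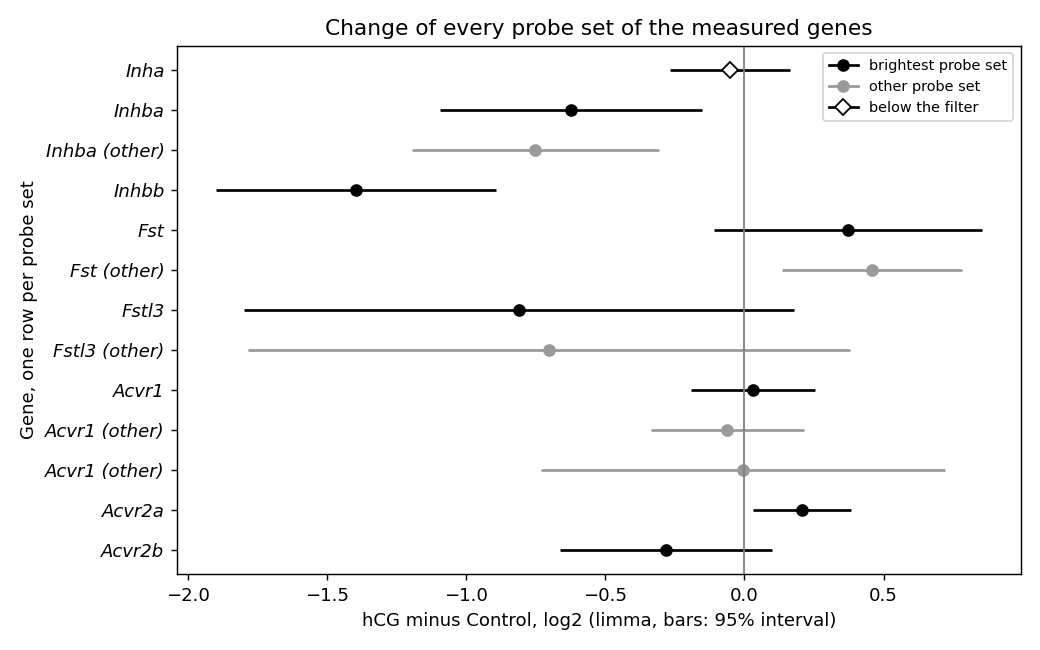
Log2 change, hCG minus Control, of all 13 probe sets of the 8 measured genes, with limma's 95% interval; black marks the brightest probe set of a gene, grey its others and an open diamond the Inha probe set below the filter. Both Inhba probe sets lie left of 0 and both Fst probe sets right of 0, the interval of the brighter Fst probe set crosses 0, and the Inhbb interval runs from -1.90 to -0.89.

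**Figure D3:**
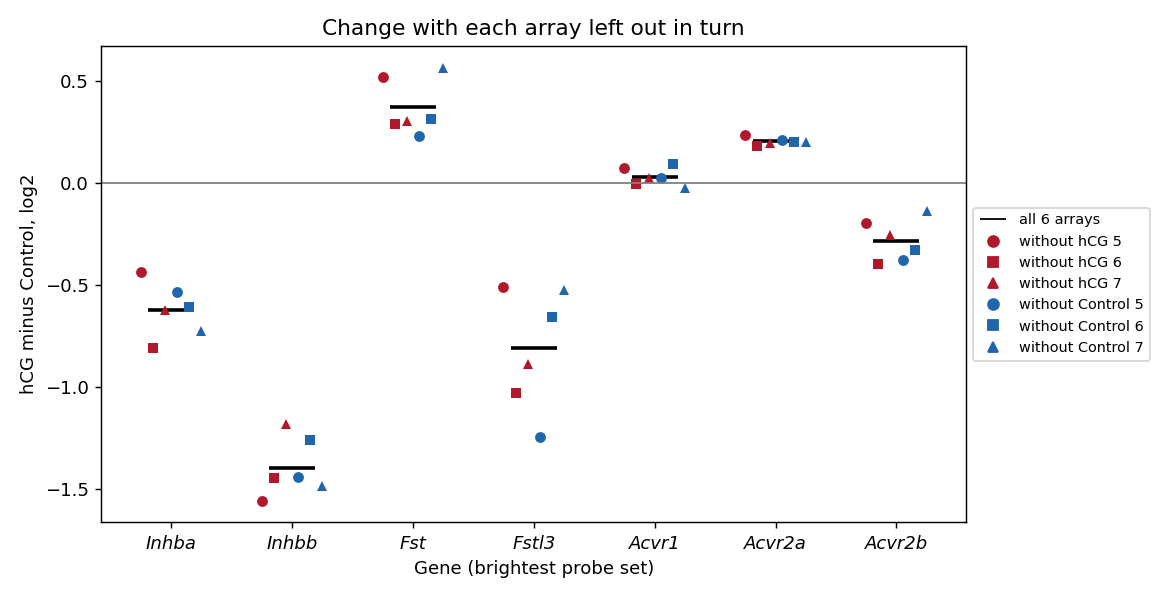
Log2 change, hCG minus Control, of the 7 tested genes with all 6 arrays (black line) and with 1 array left out in turn (red for hCG arrays, blue for Control arrays, shape by array number). Inhbb stayed between -1.56 and -1.18, Fstl3 spread from -1.25 to -0.51, and Acvr1 lay on both sides of 0.

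Beyond the 9 genes, 48 other genes of the pathway were looked at in lists by role, of which 39 had a probe set and 33 were tested. None passed limma's test over all genes, and 12 of the 33 had an unadjusted p under 0.05, against 24.1% of all genes tested. Of the 33, 15 lay above and 18 below 0. Groups did not overlap in 16 of the 33, 5 higher and 11 lower, against 31.6% of all genes tested. The median log2 change was -0.04, beside 0.03 for all genes tested.

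Among ligand-processing proteases, Furin, which cuts the precursors of activins and other TGF-beta family ligands, came nearest to the threshold. It read 5.27, 6.23 and 5.64 on hCG arrays, against 6.90, 6.87 and 7.10 on Control arrays. All hCG values were the lower, with a log2 change of -1.25 (SE 0.23, 2.38-fold), and the limma adjusted p was 0.0512. For Pcsk5, a related convertase, the log2 change was -0.48 (SE 0.14) with a limma adjusted p of 0.115, and for Pcsk7 it was 0.03 (SE 0.08). Of 13 other ligands, receptors and co-receptors, 6 were tested and 0 called, with a median of 0.01. Their log2 changes of smallest p were -0.27 (SE 0.09) for the inhibitor Wfikkn1, -0.23 (SE 0.08) for the ligand Gdf11 and 0.10 (SE 0.17) for the endothelial type I receptor Acvrl1. The limma adjusted p values were 0.147, 0.163 and 0.757 in that order. The subunit genes Inhbc and Inhbe and the receptor Acvr1c, which also carries activin B signals, were below the filter.

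Of the Smad transducers and their nuclear partners, 9 were tested, with 0 called and a median of 0.07. Smad3, which carries the activin signal to the nucleus, read 8.10, 8.26 and 8.005 on hCG arrays and 7.35, 7.52 and 7.87 on Control arrays. Its groups lay apart at a log2 change of 0.54 (SE 0.15, limma adjusted p = 0.0984). Smad4, the shared partner of activated Smads, differed by 0.26 (SE 0.08) at a limma adjusted p of 0.136, and the Smad corepressor Tgif1 by -0.39 (SE 0.11) at one of 0.106. In the feedback list, 9 were tested and 0 called, with a median of -0.12. Smad7, which blocks the receptors and is itself induced by them, read 4.45, 5.07 and 4.84 on hCG arrays and 5.23, 5.81 and 5.54 on Control arrays. That gave a change of -0.74 (SE 0.20, limma adjusted p = 0.0987), while Pmepa1, another inhibitor induced by the pathway, had one of -0.63 (SE 0.26, 0.194) and the deubiquitinase Usp15 one of 0.18 (SE 0.08, 0.236).

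The list of genes known to respond to Smad2 and Smad3 in other settings had 12 tested members, Inhba and Fst among them, with 0 called. Of these, 10 lay below 0, Inhba among them, and 2 above 0, Fst among them, where 4606 of all 10424 genes tested lay below 0. The median was -0.41, beside 0.03 for all genes tested. The gelatinase gene Mmp2 read 10.67, 10.76 and 10.63 on hCG arrays and 11.08, 11.10 and 11.24 on Control arrays. Its log2 difference was -0.46 (SE 0.09), with a limma adjusted p of 0.0529. Tgfbi, which encodes a secreted matrix protein, had an estimate of the opposite sign, with 7.54, 7.22 and 7.81 on hCG arrays and 5.74, 6.40 and 6.68 on Control arrays. Its log2 change was 1.25 (SE 0.26, 2.38-fold, limma adjusted p = 0.0591). TGF-beta itself and other ligands use the same Smads. Smad7 and Pmepa1 stand in both the feedback and the target list, and Skil in both the nuclear partner and the target list.

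**Figure D4:**
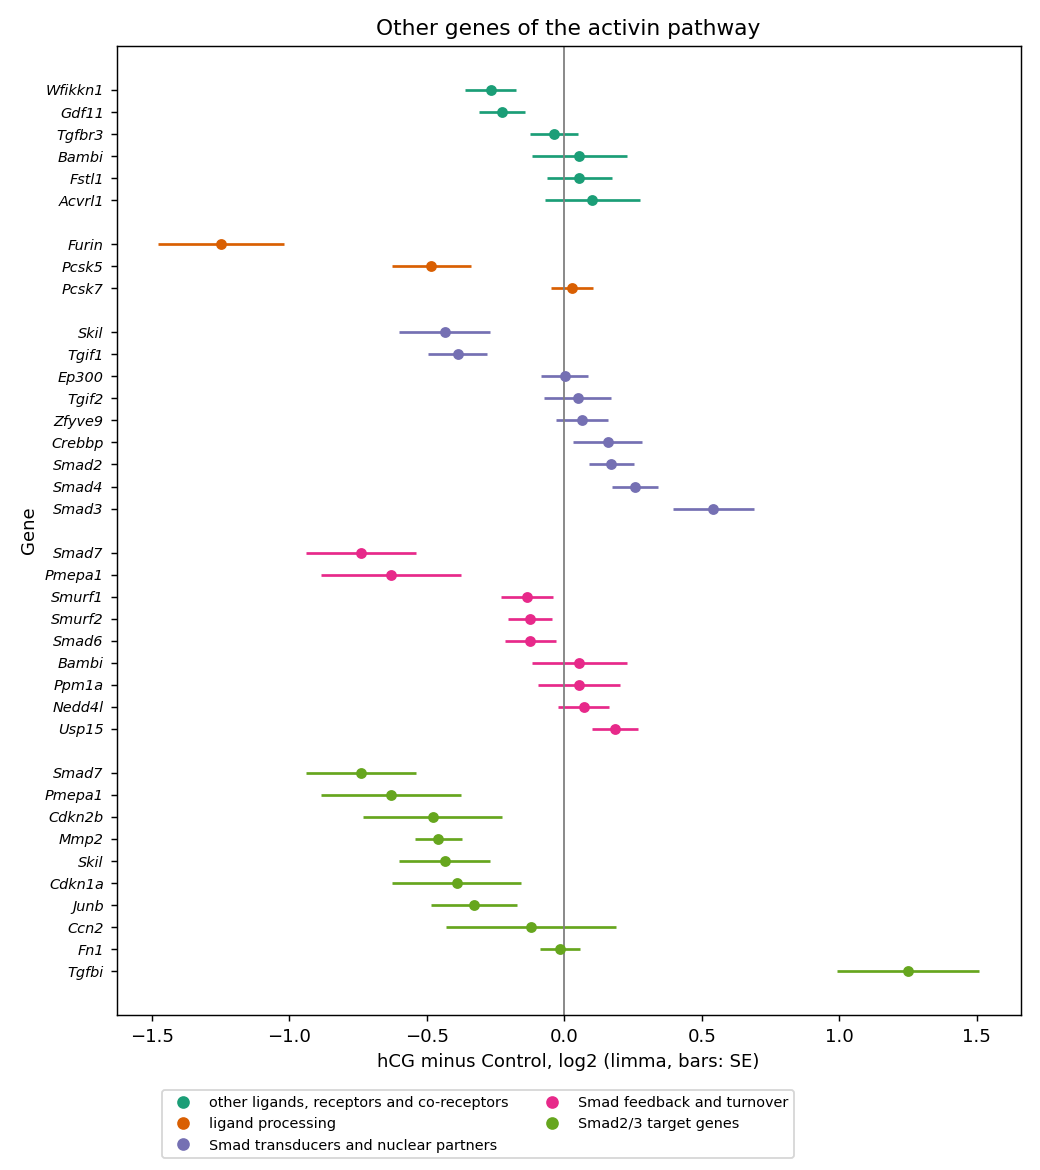
Log2 change, hCG minus Control, with its SE for the tested genes of 5 lists of the activin pathway, members left out; genes held by 2 lists are drawn in each. Furin, at -1.25, and Tgfbi, at 1.25, lie farthest from 0, and none of the 33 genes passed limma's test over all genes.

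For Inhba, Inhbb and Fst, the genes with the most similar pattern over the 6 arrays were found among 10417 other genes, by the root mean square difference of log2 values after each gene's own mean was taken off. For Inhbb these were Cd83, a surface protein of mature dendritic and other cells (0.224), the Wnt ligand gene Wnt2 (0.236) and the cell cycle inhibitor gene Cdkn2a (0.268). Cd83 read 3.66, 3.88 and 3.50 on hCG arrays and 4.89, 5.01 and 4.99 on Control arrays. For Inhba they were Slfn2 (0.0474), the homeobox gene Irx5 (0.0665) and the tetraspanin gene Cd9 (0.0678), and for Fst they were Rpp21 (0.105), Adam15 (0.105) and Ephx2 (0.106). With 6 arrays in 2 groups, many genes share such a shape, and the closeness is given as a description.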

How the data were processed

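RNA from 3 hCG and 3 Control mammosphere samples was labelled after 2-cycle amplification for Affymetrix 3' arrays, per the labels' protocols. Analysis started from the log2 table the authors deposited, with 31099 probe sets and 6 columns. RMA, MAS5 and limma are named, per the submitters' processing notes, with no version or role; the log base and normalization are not given in the sources used here. Values ran from 0.737 to 13.1 with array medians of 3.44 to 3.48, so they were taken as log2 and normalized between arrays, which hides any change shared by most genes. The number of arrays limits the precision.

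The 57 control probe sets were left out, then the dimmest 40% by mean over all arrays (below 2.67), which left 18625. Of the annotated probe sets 20826 named 1 gene and 436 several. For 20764 of the 20826, the symbol was taken by gene number from a RefSeq table (GRCr8), whether or not it differed. Groups were compared with limma 3.58.1 (lmFit, eBayes; R 4.3.3) and no block term, on all 18625 probe sets, two-sided, with Benjamini-Hochberg adjustment over the brightest probe set of each of 10424 genes, at adjusted p under 0.05; this called 190 genes, 105 higher and 85 lower. For a gene's other probe sets the adjustment was over all 18625. The fit was tested on simulated data. Members and lists were chosen with earlier results of these data known. Named were all members, each pathway list's called genes and its 3 of smallest p, and the 3 nearest patterns to Inhba, Inhbb and Fst. Alternatives were other filters, scalings, variance models and array weights, averaging the probe sets of a gene, the array number as a block, each array left out, and, added after seeing the data, adjustment over probe sets. The planned pseudocounts were not run, since values were already on a log scale.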

Additional observations from a re-analysis of the deposited data

How the results depend on the processing

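Inhbb kept its direction under all 17 alternatives, from -1.78 to -1.18, with a limma adjusted p from 0.00465 to 0.174. Inhba, Fst, Fstl3, Acvr2a and Acvr2b also kept theirs. Acvr1, near 0, turned to -0.00719 with cyclic loess, to -0.0118 with the mean of its probe sets, to -0.00322 without hCG 6 and to -0.0257 without Control 7; with 1 array left out it ran from -0.0257 to 0.0942. The number of genes called, 190, was 2663 with array weights, 306 with a variance trend and 0 to 584 with 1 array left out. It was 177 with p adjusted over all probe sets. With array weights 4 members passed, Inhba, Inhbb, Fst and Acvr2a, and with 1 array left out 0 or 1. The array number as a replicate block called 118 genes and 1 member, Inhbb (limma adjusted p = 0.0450, and 0.0559 over probe sets, where the block called 1 probe set in all). Deviations of same-numbered arrays correlated at -0.09, 0.13 and 0.002, and those of differently numbered arrays at -0.19 to 0.18. With so few arrays per group, these values cannot decide whether the numbers pair the samples. The block lowered the SE of Fstl3 from 0.417 to 0.157 and of Fst from 0.203 to 0.130. It also lowered those of Inhbb, Inhba and Acvr2b, and raised those of Acvr1 and Acvr2a, the latter from 0.0738 to 0.0928. Of the other pathway genes 0 passed in the reported fit. Furin and Mmp2 made up the 2 calls with no filter, the 2 with cyclic loess and the 2 with a variance trend. A single call came with the dimmest 60% left out, quantile normalization or the mean of probe sets (each Mmp2), median centring (Furin) and the replicate block (Smad7). Array weights gave 10 calls, and leaving out 1 array gave 0 to 4. Acvr2b could not be tested with the dimmest 60% left out. The cause of these shifts was not tested. Inha was below the filter on all arrays, and Acvr2b lay near it.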
